A study of Rattus norvegicus with 18 samples.

Results

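Lysosomes digest macromolecules that reach them through endocytosis and autophagy, and 38 genes of these pathways were followed from the epiblast to the fetal germ cells of the rat. The 38 were chosen by name, as lines of the expression table whose gene symbol was on a list. It held 20 lysosomal genes (13 hydrolases, 5 membrane proteins, and the genes of the saposin precursor and progranulin), 16 autophagy genes and the 2 transcriptional regulators Tfeb and Tfe3. All 38 were among the 32545 lines of the table, and all 38 were among the 14865 genes tested, those with at least 1 RPKM (reads per kilobase of transcript, scaled to the mapped reads of the library) in at least 2 libraries. Every sample came from a Crlj:WI rat with the genotype Prdm14-Venus, a fluorescent reporter for a germ cell regulator, so no group without the reporter was compared.

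The 12 primordial germ cell (PGC) libraries, made from the precursors of eggs and sperm, were taken at E9.5 (embryonic day 9.5) and on each of the 3 days that followed, with 2 libraries a day and no sex given, and at E15.5, with 2 female and 2 male libraries. The 6 epiblast libraries, from the tissue in which PGCs and the body of the embryo have their origin, came from E7.25 and E7.75, with 2 male libraries and 1 female library a day. Whether replicates are separate animals, litters or pools is not stated in the labels, so p-values measure only the spread between these libraries within their groups. In such bulk samples fewer cells with a transcript and less of it per cell cannot be told apart.

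Newly made lysosomal hydrolases are sorted from the Golgi to an acidified compartment whose membrane is coated with glycoproteins such as LAMP1 and LAMP2. In autophagy, the ULK1 and Beclin complexes start a double membrane, a conjugation machinery attaches ATG8 proteins to it, and receptors such as SQSTM1 bind both cargo and ATG8 before the vesicle fuses with a lysosome. TFEB and TFE3 are related transcription factors that activate many lysosomal and autophagy genes through E-box sequences when they enter the nucleus.

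The labels were checked against marker genes. Summed RPKM of 7 PGC markers was 423 to 850.3 in PGC libraries and 5.56 to 19.99 in epiblast libraries, while that of epiblast markers was 489 to 2538 in PGC libraries and 3122 to 4314 in epiblast libraries. Sequencing depth, read from the steps between low RPKM values relative to the E7.75 female library, lay between 82.6% and 120.9% for 14 libraries, whereas the 4 made at E10.5 and E11.5 had 20.7% to 22.9%. The table lists some genes used by every cell at or near 0, with Fau at 0 in 18 libraries and Gapdh at a median of 1.02 RPKM, so a value of 0 is given here only as listed.

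Most of the 38 genes were measured well above the filter, and 30 had at least 1 RPKM in all 18 libraries. Means over all libraries, which RPKM expresses per transcript length, were highest for the ATG8 protein gene Gabarap at 309 RPKM, the membrane glycoprotein gene Lamp1 at 226, the cysteine protease gene Ctsl at 216, the progranulin gene Grn at 188 and the autophagy receptor gene Sqstm1 at 187. A mean of at least 100 RPKM was found for 11 genes, 7 of them lysosomal, and 9 genes had a mean under 10. The lowest means were those of Tfeb at 1.498 RPKM and of the autophagy receptor gene Optn at 1.85. Tfeb was listed at 0 in 3 libraries, Optn in 2 and the sialidase gene Neu1 in 1.

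**Figure D1:**
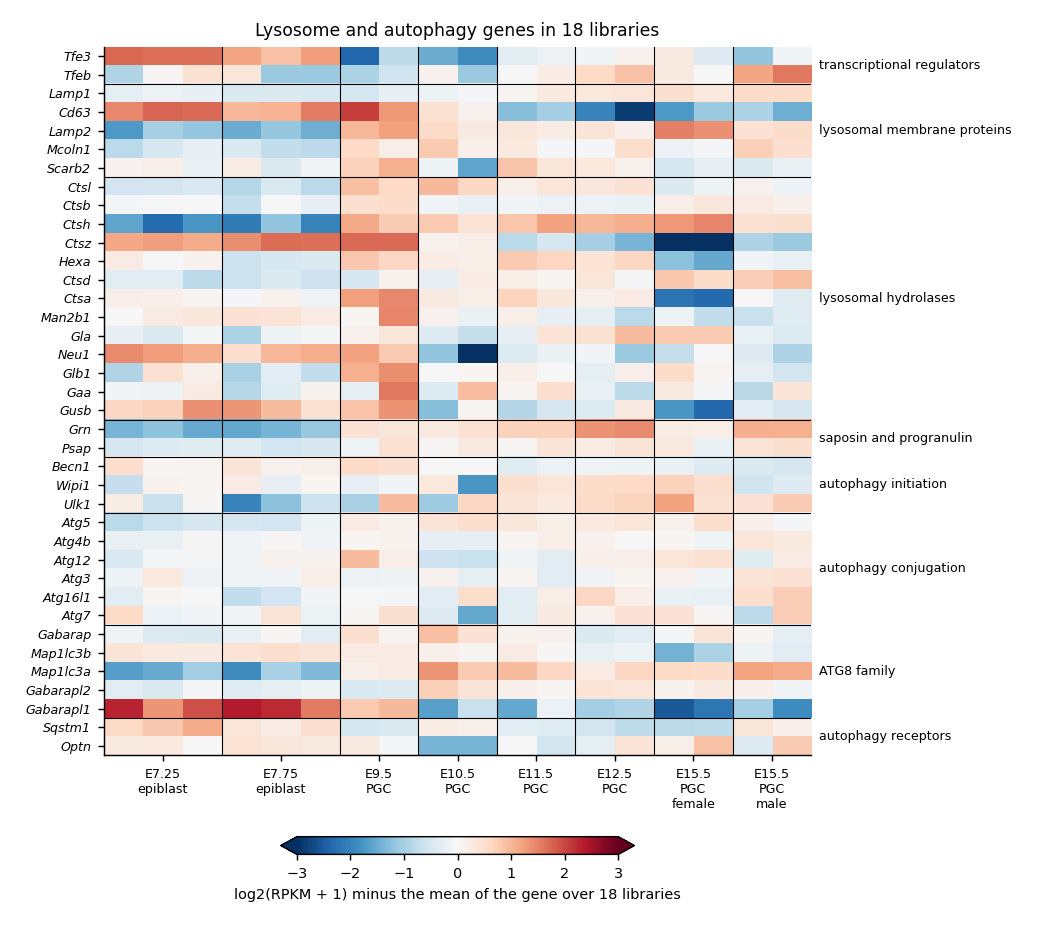
Each row is 1 of the 38 genes and each column 1 of the 18 libraries, in order of embryonic day. Colour is log2(RPKM + 1) minus the gene's mean over the 18 libraries, from blue (lower) to red (higher). Lamp2, Ctsh, Grn and Map1lc3a are blue in the 6 epiblast libraries and Tfe3 and Gabarapl1 red.

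The lysosomal genes were the part of the list with the higher summed level in germ cells. Summed RPKM of the 20 lysosomal genes was 1501 to 2208 in the 12 PGC libraries and 1057 to 1317 in the 6 epiblast libraries, which do not overlap. Without Ctsh and Grn, an omission chosen after seeing the data, the other 18 lysosomal genes summed to 1116 to 1835 RPKM in PGC and 989 to 1237 RPKM in epiblast libraries, which overlap. The 16 autophagy genes summed to 874 to 1374 in PGC libraries and 996 to 1091 in epiblast libraries, which overlap. By day, the lysosomal sum was 1229.7 to 1317 and 1057 to 1209 at E7.25 and E7.75 of the epiblast, then 2158 to 2208 in E9.5 PGC, 1593 to 1697 at E10.5, 1579.7 to 1699 at E11.5 and 1759 to 1824 at E12.5. At E15.5 it was 1501 to 1557 in female PGC and 1684 to 1744 in male PGC. The highest lysosomal sums were thus those of the 2 E9.5 libraries, and the highest autophagy sum was that of 1 of the E10.5 libraries, whose sums were 1152 to 1374. In that library Gabarap alone had 563 RPKM. Total RPKM over all genes was 849182 and 760137 in the E10.5 libraries and 675650 and 603420 in the E9.5 libraries. The part of library scaling in these sums was not tested.

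**Figure D2:**
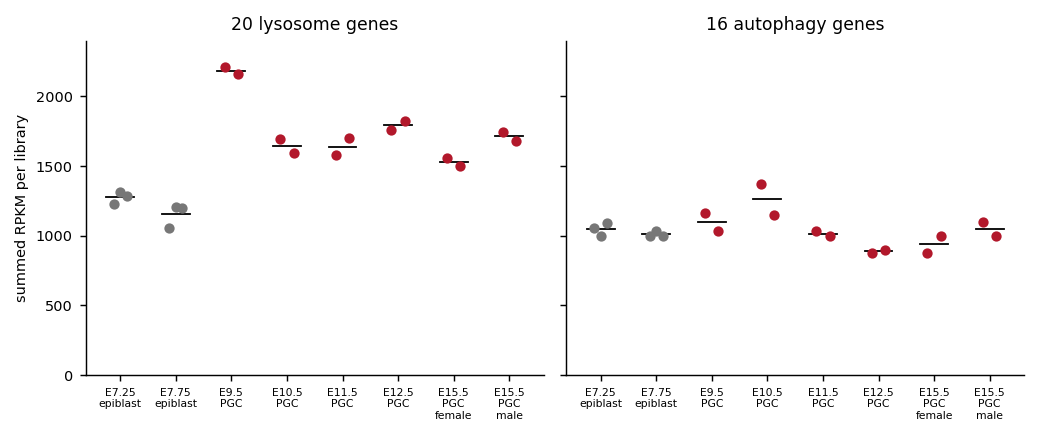
Each point is the summed RPKM of 20 lysosomal genes (left) or 16 autophagy genes (right) in 1 library, with epiblast libraries in grey, PGC libraries in red and a line at the mean of each group. Lysosomal sums are 1501 to 2208 in PGC and 1057 to 1317 in epiblast libraries.

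Gene by gene, all PGC libraries were set against all epiblast libraries with limma on log2(RPKM + 1), in a fit of 8 groups over all genes. Of the 38 genes, 27 passed an adjusted p of 0.05, where 58.5% of the 14865 tested genes passed, so passing was common. Germ cells had more of 18 genes (background 32.1%) and less of 9 (background 26.4%). Of the 20 lysosomal genes 12 were higher and 4 lower, with a median log2 fold change of 0.38, beside 0.09 for all tested genes. Of the 16 autophagy genes 6 were higher and 4 lower, with a median of 0.12. The standard errors and p-values of this fit leave out the spread between days of the PGC and of the epiblast. With PGC and epiblast fitted as 2 groups, 40.3% of tested genes passed (21% higher and 19.3% lower). In that fit 8 lysosomal genes were higher and 4 lower, and 4 autophagy genes were higher and 3 lower. With libraries shifted to the same median, the 38 genes split evenly, as 12 were higher and 12 lower, beside 25% higher and 31.4% lower of all tested genes. Of the lysosomal genes 8 were higher and 6 lower under that scaling (median 0.24), and of the autophagy genes 4 were higher and 5 lower (median -0.03, all tested genes -0.05). For 11 of the 38 genes no PGC library overlapped any epiblast library, which holds for 11.7% of tested genes. No test was made of the difference between the lysosomal and the autophagy list.

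**Figure D3:**
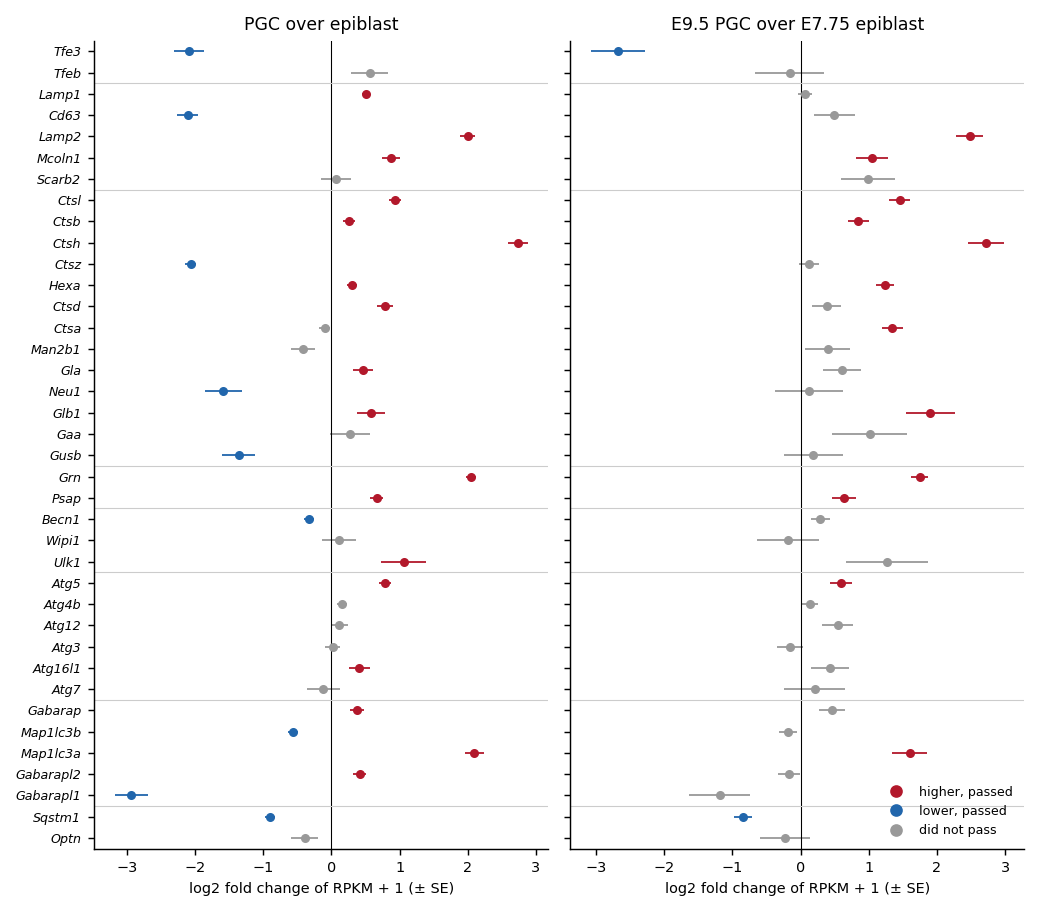
Log2 fold changes of RPKM + 1 with standard errors for the 38 genes, grouped by role, for PGC over epiblast (left, 12 and 6 libraries) and for E9.5 PGC over E7.75 epiblast (right, 2 and 3 libraries). Red marks genes higher and blue genes lower at a limma adjusted p of 0.05, and grey the others. Ctsh, Lamp2, Grn and Map1lc3a have the largest positive values in the left panel and Gabarapl1 the most negative, and Tfe3 is the most negative in the right panel.

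Of the transcriptional regulators, Tfe3 was lower in germ cells. Its level was 1.86 to 16.7 RPKM (median 10.5) in PGC libraries and 26.1 to 47.8 RPKM (median 39.7) in epiblast libraries (log2 fold change -2.09 ± 0.22 SE, limma adjusted p = 1.75e-06). The groups do not overlap: the lowest epiblast library exceeded the highest PGC library. Within the PGC libraries, Tfe3 had 1.86 and 7.61 RPKM at E9.5 and 4.27 and 3.004 at E10.5. It had 10.6 and 12.1 RPKM at E11.5 and 12.9 and 15.2 at E12.5. At E15.5 it had 16.7 and 10.3 RPKM in female and 5.44 and 12.8 in male libraries. Its 3 lowest values were among those of E9.5 and E10.5. Tfeb, whose product has the same kind of DNA-binding domain, was 0 to 5.396 RPKM (median 1.45) in PGC libraries and 0 to 1.95 RPKM (median 0.685) in epiblast libraries, with a difference that did not pass (log2 fold change 0.56 ± 0.28 SE, limma adjusted p = 0.0957). These are transcript levels, and the nuclear entry through which both proteins are controlled was not measured.

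The E-box core CACGTG that TFEB and TFE3 can bind was searched for, on both strands, which are the same for a palindrome, in RefSeq promoters of the GRCr8 assembly, from 250 bases before to 50 after each gene's start. Promoters were available for 33 of the 38 genes (17 lysosomal, 14 autophagy and both regulators). The core occurred in 6 of 17 lysosomal promoters (35.3%), in 2 of 14 autophagy promoters (14.3%) and in 0 of 2 regulator promoters, beside 2148 of all 33469 promoters in the table (6.42%). The longer CLEAR element, which contains the core, occurred in none of the 33 and in 78 of all promoters (0.233%). Among further genes of these pathways, it occurred in 1 of 22 hydrolase, 1 of 10 membrane and sorting, and 2 of 29 autophagy promoters. In 13 promoters of the proton pump V-ATPase it occurred in 0. The core occurred in 18.2%, 20%, 13.8% and 15.4% of these 4 lists, in the same order. The shares of all promoters were not limited to tested genes, whereas all 33 genes were tested, so the backgrounds differ. A match is a description of these letters and shows no binding.

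Promoter sequences of 4 lysosomal membrane protein genes are shown because they pair the presence of the core with different directions in germ cells, and they were picked after levels and matches had been seen. They are the 250 bases before the start, printed 5′ to 3′ on the gene's strand with each CACGTG in capitals: Lamp1 (chr16:83075064-83075313, minus strand), Mcoln1 (chr12:6358008-6358257, plus strand), Cd63 (chr7:1921894-1922143, plus strand) and Lamp2 (chrX:122087674-122087923, minus strand).
Lamp1: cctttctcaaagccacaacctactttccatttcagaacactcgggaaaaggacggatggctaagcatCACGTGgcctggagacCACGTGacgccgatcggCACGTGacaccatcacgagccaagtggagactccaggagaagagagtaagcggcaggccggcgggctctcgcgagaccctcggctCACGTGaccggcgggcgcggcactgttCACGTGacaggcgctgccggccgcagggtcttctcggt
Mcoln1: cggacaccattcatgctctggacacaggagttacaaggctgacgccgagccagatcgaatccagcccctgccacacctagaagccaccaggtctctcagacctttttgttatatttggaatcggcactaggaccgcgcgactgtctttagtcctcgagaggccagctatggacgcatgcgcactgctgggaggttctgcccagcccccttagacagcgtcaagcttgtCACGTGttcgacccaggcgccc
Cd63: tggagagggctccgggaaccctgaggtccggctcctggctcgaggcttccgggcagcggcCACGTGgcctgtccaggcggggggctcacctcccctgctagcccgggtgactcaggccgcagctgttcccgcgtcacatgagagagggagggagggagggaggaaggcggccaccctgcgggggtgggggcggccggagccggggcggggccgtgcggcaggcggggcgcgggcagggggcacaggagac
Lamp2: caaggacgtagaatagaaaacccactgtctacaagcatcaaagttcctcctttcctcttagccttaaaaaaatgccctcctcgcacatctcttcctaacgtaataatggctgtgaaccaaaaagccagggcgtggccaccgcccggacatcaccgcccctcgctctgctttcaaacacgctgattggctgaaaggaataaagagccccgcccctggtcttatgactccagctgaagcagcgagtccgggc
Lamp1 held 5 cores, with first bases at positions -183, -167, -150, -65 and -38 from the start, and it was the only promoter of the table with at least 5, while 174 promoters held at least 2. Mcoln1 had a core at -22 in the printed window and a second at 5 after the start, and Cd63 had 1 at -190. The Lamp2 window held none. The other promoters with a core were those of Ctsd at -157 and -10, Gaa at -67, Glb1 at -100, Atg3 at -39 and -16, and Atg5 at -19.

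The membrane proteins moved in both directions. Lamp2, whose product is also the receptor of chaperone-mediated autophagy, had 59.9 to 156 RPKM (median 76.02) in PGC libraries and 15.6 to 26.5 RPKM (median 21.3) in epiblast libraries, a rise without overlap (log2 fold change 2.0002 ± 0.11 SE, limma adjusted p = 1.62e-09). Mcoln1, the gene of a calcium channel of the lysosomal membrane, had 33.4 to 66.4 RPKM (median 45.1) in PGC libraries and 21.1 to 31.6 RPKM (median 24.7) in epiblast libraries, again without overlap (log2 fold change 0.87 ± 0.13 SE, limma adjusted p = 5.38e-05). Lamp1, whose promoter held the 5 cores, had a high level in both tissues.

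Lamp1 had 152 to 329 RPKM (median 269) in PGC libraries and 158 to 194 RPKM (median 171) in epiblast libraries (log2 fold change 0.51 ± 0.06 SE, limma adjusted p = 3.46e-06), and the ranges overlap. Cd63, the gene of a tetraspanin of lysosomes and multivesicular bodies, was lower: 9.36 to 312 RPKM (median 34.6) in PGC libraries and 147 to 249.8 RPKM (median 208) in epiblast libraries (log2 fold change -2.11 ± 0.16 SE, limma adjusted p = 6.61e-08). The overlap in Cd63 came from E9.5, where the 2 libraries had 312 and 181 RPKM, while every later PGC library lay below every epiblast library. Scarb2, which carries glucocerebrosidase to the lysosome, had 0.0712 to 5.74 RPKM (median 2.199) in PGC libraries and 1.37 to 2.74 RPKM (median 2.26) in epiblast libraries, and did not pass (log2 fold change 0.07 ± 0.21 SE, limma adjusted p = 0.801).

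Among the 13 hydrolases, Ctsh, the gene of the aminopeptidase cathepsin H, had the largest rise of all 38 genes. It was 103 to 213 RPKM (median 146) in PGC libraries and 14.8 to 33.3 RPKM (median 20.3) in epiblast libraries (log2 fold change 2.73 ± 0.14 SE, limma adjusted p = 1.4e-09), so every PGC library lay above every epiblast library. The endopeptidase gene Ctsl was 148 to 391 RPKM (median 255) in PGC libraries and 110.1 to 145 RPKM (median 135) in epiblast libraries, also without overlap (log2 fold change 0.93 ± 0.09 SE, limma adjusted p = 4.4e-07). Ctsd, the gene of the aspartic protease cathepsin D, was 44.6 to 118 RPKM (median 73.4) in PGC libraries and 36.03 to 50.3 RPKM (median 43.7) in epiblast libraries, with overlap (log2 fold change 0.78 ± 0.12 SE, limma adjusted p = 5.92e-05). Smaller log2 fold changes passed for the glycosidase genes Glb1 (0.58), Gla (0.46) and Hexa (0.30) and for the protease gene Ctsb (0.26).

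These 4 calls depended on the settings. All 4 ended when PGC and epiblast were fitted as 2 groups and when libraries were shifted to the same median. In addition, the call of Glb1 ended without E7.25 epiblast male replicate 1 (0.0664) and E7.75 epiblast male replicate 1 (0.0614), that of Gla without E7.75 epiblast male replicate 1 (0.0573), with limma adjusted p in parentheses, and the log2 fold change of Ctsb was 0.16 without E7.75 epiblast male replicate 1.

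Not every hydrolase followed. Ctsz, the gene of the carboxypeptidase cathepsin Z, was 5.57 to 192 RPKM (median 31.6) in PGC libraries and 127 to 188 RPKM (median 147) in epiblast libraries (log2 fold change -2.06 ± 0.08 SE, limma adjusted p = 7.73e-11). By day it had 190.4 and 192 RPKM at E9.5, 64.1 and 66.6 at E10.5, 32.9 and 41.04 at E11.5 and 28.8 and 21.6 at E12.5, against 154, 188 and 186 in E7.75 epiblast. Of the PGC libraries, only those of E9.5 reached the epiblast range. Neu1, the gene of a sialidase, was 0 to 21.8 RPKM (median 6.54) in PGC libraries and 13.1 to 25.4 RPKM (median 19.96) in epiblast libraries (log2 fold change -1.59 ± 0.27 SE, limma adjusted p = 0.000169). Gusb, the gene of beta-glucuronidase, was 0.0114 to 12.3 RPKM (median 2.81) in PGC libraries and 6.195 to 12.6 RPKM (median 8.21) in epiblast libraries (log2 fold change -1.36 ± 0.24 SE, limma adjusted p = 0.000199).

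Neu1 and Gusb overlapped between the groups, since their E9.5 libraries were in the epiblast range. Ctsa, Man2b1 and Gaa, which encode a serine carboxypeptidase, an alpha-mannosidase and the glycogen-degrading alpha-glucosidase, did not pass, with log2 fold changes of -0.10 ± 0.08, -0.42 ± 0.18 and 0.27 ± 0.30 (SE).

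Both genes of lysosomal cofactors rose. Grn encodes progranulin, a secreted glycoprotein that is cleaved to granulins in lysosomes, and was 172 to 406 RPKM (median 224) in PGC libraries and 50.9 to 67.8 RPKM (median 56.7) in epiblast libraries (log2 fold change 2.05 ± 0.07 SE, limma adjusted p = 1.5e-11). Every PGC library lay above every epiblast library. Psap encodes the precursor of the saposins, which present lipids to hydrolases, and was 118 to 189 RPKM (median 164) in PGC libraries and 90.8 to 105 RPKM (median 100.01) in epiblast libraries, without overlap (log2 fold change 0.67 ± 0.10 SE, limma adjusted p = 3.8e-05).

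Of the 5 genes of the ATG8 family, whose proteins are conjugated to the autophagosome membrane, 3 were higher and 2 lower in germ cells. Map1lc3a was 64.2 to 143 RPKM (median 87.7) in PGC libraries and 14.6 to 28.6 RPKM (median 20.7) in epiblast libraries, higher without overlap (log2 fold change 2.09 ± 0.14 SE, limma adjusted p = 1.53e-08). Its paralog Map1lc3b was 35.2 to 114 RPKM (median 92.2) in PGC libraries and 115 to 135 RPKM (median 126) in epiblast libraries, lower without overlap (log2 fold change -0.56 ± 0.07 SE, limma adjusted p = 1.33e-05). The 2 paralogs thus moved in opposite directions.

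The GABARAP branch of the family also held both directions. Gabarapl1 was 0.443 to 15.3 RPKM (median 3.13) in PGC libraries and 19.9 to 42.2 RPKM (median 34.6) in epiblast libraries, the largest fall of the 38 genes (log2 fold change -2.93 ± 0.24 SE, limma adjusted p = 1.68e-07). Gabarap was 221 to 563 RPKM (median 320.0) in PGC libraries and 219.8 to 305 RPKM (median 246) in epiblast libraries (log2 fold change 0.38 ± 0.10 SE, limma adjusted p = 0.0061). Gabarapl2 was 16.3 to 37.98 RPKM (median 25.6) in PGC libraries and 16.6 to 21.8 RPKM (median 18.2) in epiblast libraries (log2 fold change 0.41 ± 0.09 SE, limma adjusted p = 0.00137). Both overlapped between the groups, and the call of Gabarap ended with libraries shifted to the same median and with PGC and epiblast fitted as 2 groups. ATG8 genes share sequence with one another and with processed copies in mammalian genomes, and how reads that match several places were counted is not given in the sources used here.

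Of the genes that start autophagy, Ulk1, the gene of the initiating kinase, was 0.912 to 8.37 RPKM (median 4.802) in PGC libraries and 0.0192 to 3.799 RPKM (median 1.61) in epiblast libraries, a low level that rose with overlap (log2 fold change 1.06 ± 0.33 SE, limma adjusted p = 0.0125). Becn1, the gene of a subunit of the lipid kinase complex, was 72.1 to 152 RPKM (median 90.8) in PGC libraries and 104 to 145 RPKM (median 114) in epiblast libraries (log2 fold change -0.32 ± 0.08 SE, limma adjusted p = 0.00223), a fall that ended when PGC and epiblast were fitted as 2 groups. Wipi1, the gene of a protein that reads the lipid made by that complex, did not pass (log2 fold change 0.11 ± 0.25 SE, limma adjusted p = 0.712).

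Of the 6 conjugation genes, Atg5, part of the complex that attaches ATG8 proteins to lipid, was 68.3 to 103 RPKM (median 86.2) in PGC libraries and 40.2 to 64.6 RPKM (median 48.8) in epiblast libraries, higher without overlap (log2 fold change 0.79 ± 0.09 SE, limma adjusted p = 3.28e-06). Its partner Atg16l1 had a log2 fold change of 0.41 ± 0.15 (SE, limma adjusted p = 0.031), a call that ended without each of E7.25 epiblast male replicate 1 (0.0865), E7.75 epiblast male replicate 1 (0.0903), E7.75 epiblast male replicate 2 (0.0696), E11.5 PGC replicate 2 (0.0555), E12.5 PGC replicate 1 (0.0564) and E15.5 PGC male replicate 2 (0.0523), with limma adjusted p in parentheses. It also ended with quantile normalization, with libraries shifted to the same median and with PGC and epiblast fitted as 2 groups. The log2 fold changes of Atg3, Atg4b, Atg7 and Atg12 were 0.02 ± 0.11, 0.15 ± 0.07, -0.12 ± 0.25 and 0.12 ± 0.12 (SE) and did not pass. The receptor gene Sqstm1 was lower, with 101 to 223 RPKM (median 130.4) in PGC libraries and 201 to 373 RPKM (median 254) in epiblast libraries (log2 fold change -0.90 ± 0.07 SE, limma adjusted p = 1.51e-07). Optn, another receptor gene, did not pass (log2 fold change -0.39 ± 0.20 SE, limma adjusted p = 0.11).

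Longer lists of other genes of the same pathways were read beside the shares of all tested genes, 32.1% higher and 26.4% lower. Of 28 tested further lysosomal hydrolase genes 14 were higher and 3 lower in germ cells (median log2 fold change 0.48), and of 33 tested further autophagy genes 17 were higher and 4 lower (median 0.48). Of 12 further lysosomal membrane and sorting genes 3 were higher and 3 lower, of 16 genes of the proton pump V-ATPase 7 were higher and 7 lower, and of 14 genes of mTORC1 signalling at the lysosome 3 were higher and 3 lower. The further autophagy genes thus had a median as high as the further hydrolases, whereas the medians of the 16 and the 20 genes above were 0.12 and 0.38. The largest of these changes were in Lgmn, the gene of an asparaginyl protease, with 88.6 ± 19.8 RPKM in PGC and 19.5 ± 4.67 in epiblast libraries (mean ± SD, n = 12 and n = 6; log2 fold change 2.13 ± 0.11 SE, limma adjusted p = 8.13e-10), and in Bnip3, the gene of a mitophagy receptor, with 12.3 ± 11.7 RPKM in PGC and 94.6 ± 29.1 in epiblast libraries (same n; log2 fold change -3.15 ± 0.33 SE, limma adjusted p = 1.66e-06).

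Markers of other cells were read beside these levels. Macrophages are rich in lysosomes, and summed RPKM of 13 macrophage markers was 2.09 to 12.9 in PGC libraries and 0.846 to 7.33 in epiblast libraries. These sums came from markers other than C1qa and C1qc, which were listed at 0 in all 18. Visceral endoderm markers, of a tissue that lies against the epiblast, summed to 2.27 to 26.6 in PGC and 16.1 to 65.1 in epiblast libraries. Endothelial and mesenchymal markers reached 26.5 to 95.4 and 51.3 to 57.9 in the 2 E9.5 PGC libraries, against 0 to 0.658 and 0.0461 to 3.76 in epiblast libraries. With both E9.5 libraries left out, a step chosen after seeing the data, 28 of the 38 genes passed (17 higher and 11 lower), where 62.2% of all tested genes did, and 2 of the 27 calls, those of Ctsb and Glb1, ended. The part of other cells in the differences between PGC and epiblast was otherwise not tested.

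In the earliest germ cells sampled, every lysosomal gene that passed was higher than in E7.75 epiblast. In E9.5 PGC against E7.75 epiblast, 12 genes were higher and 2 lower (background 27.6% in either direction, 16.3% higher and 11.3% lower), of 38. Of the 20 lysosomal genes 10 were higher and 0 lower (median log2 fold change 0.92, all tested genes 0.04), and of the 16 autophagy genes 2 were higher and 1 lower (median 0.17). With libraries shifted to the same median, 10 were higher and 4 lower of the 38. Shifting moved the median of all tested genes to -0.25, that of the lysosomal genes to 0.62 and that of the autophagy genes to -0.12.

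Lamp2 had 108 and 128 RPKM in the E9.5 PGC libraries and 18.7, 23.5 and 19.05 in the E7.75 epiblast libraries (log2 fold change 2.48 ± 0.19 SE, limma adjusted p = 6.87e-07). Ctsh had 171 and 131 RPKM in E9.5 PGC and 17.1, 33.3 and 18.4 in E7.75 epiblast (log2 fold change 2.72 ± 0.26 SE, limma adjusted p = 5.07e-06). Grn had 204 and 192 RPKM in E9.5 PGC and 50.9, 57.1 and 67.8 in E7.75 epiblast (log2 fold change 1.75 ± 0.12 SE, limma adjusted p = 2.5e-07). For each of these 3 genes both germ cell libraries were above all 3 epiblast libraries, and the groups were without overlap for 27 of the 38 genes, beside 48.9% of tested genes. Glb1, the gene of lysosomal beta-galactosidase, had 17.5 and 22.3 RPKM in E9.5 PGC and 3.53, 6.12 and 4.28 in E7.75 epiblast (log2 fold change 1.90 ± 0.36 SE, limma adjusted p = 0.00135), the highest levels it reached in any library.

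Ctsl had 375 and 302 RPKM in E9.5 PGC and 110.1, 145 and 114 in E7.75 epiblast (log2 fold change 1.46 ± 0.16 SE, limma adjusted p = 1.28e-05). Ctsa had 103 and 119 RPKM in E9.5 PGC and 42.1, 47.7 and 39.2 in E7.75 epiblast (log2 fold change 1.35 ± 0.15 SE, limma adjusted p = 1.92e-05). Hexa, the gene of a hexosaminidase subunit, had 113 and 99.2 RPKM in E9.5 PGC and 40.8, 45.3 and 47.02 in E7.75 epiblast (log2 fold change 1.24 ± 0.13 SE, limma adjusted p = 1.22e-05). All 3 were without overlap, as were Ctsb (0.85), Mcoln1 (1.04) and Psap (0.64), given as log2 fold changes. The call of Mcoln1 ended without E9.5 PGC replicate 1 (0.0568) and that of Psap without E9.5 PGC replicate 2 (0.206), limma adjusted p in parentheses.

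On the autophagy side, Map1lc3a had 64.2 and 67.3 RPKM in E9.5 PGC and 14.6, 28.6 and 22.1 in E7.75 epiblast (log2 fold change 1.60 ± 0.25 SE, limma adjusted p = 0.00034). Sqstm1 had 121 and 126 RPKM in E9.5 PGC and 223, 201 and 244 in E7.75 epiblast (log2 fold change -0.84 ± 0.14 SE, limma adjusted p = 0.000375). Both E9.5 libraries thus lay above the epiblast for Map1lc3a and below it for Sqstm1. Atg5 rose by 0.60 ± 0.16 (log2, SE, limma adjusted p = 0.0131), a call that ended without E9.5 PGC replicate 1 (0.0775). The calls of Atg5 and Psap also ended with libraries shifted to the same median and when only the 5 libraries compared were fitted. Tfe3 had the largest fall, with 1.86 and 7.61 RPKM in E9.5 PGC and 32.7, 26.1 and 34.04 in E7.75 epiblast (log2 fold change -2.68 ± 0.40 SE, limma adjusted p = 0.00022). Among 33 further autophagy genes 11 were higher and 0 lower, and among 28 further hydrolases 12 were higher and 1 lower, beside 16.3% higher and 11.3% lower of all tested genes.

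The E9.5 libraries carried more endothelial and mesenchymal marker RNA than those of any other group. Summed mesenchymal markers were 51.3 to 57.9 RPKM in E9.5 PGC and 0.0461 to 1.198 in E7.75 epiblast, and macrophage markers 2.202 to 2.88 in E9.5 PGC and 0.846 to 2.45 in E7.75 epiblast. The part of these cells in the lysosomal levels at E9.5 was not tested.

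**Figure D4:**
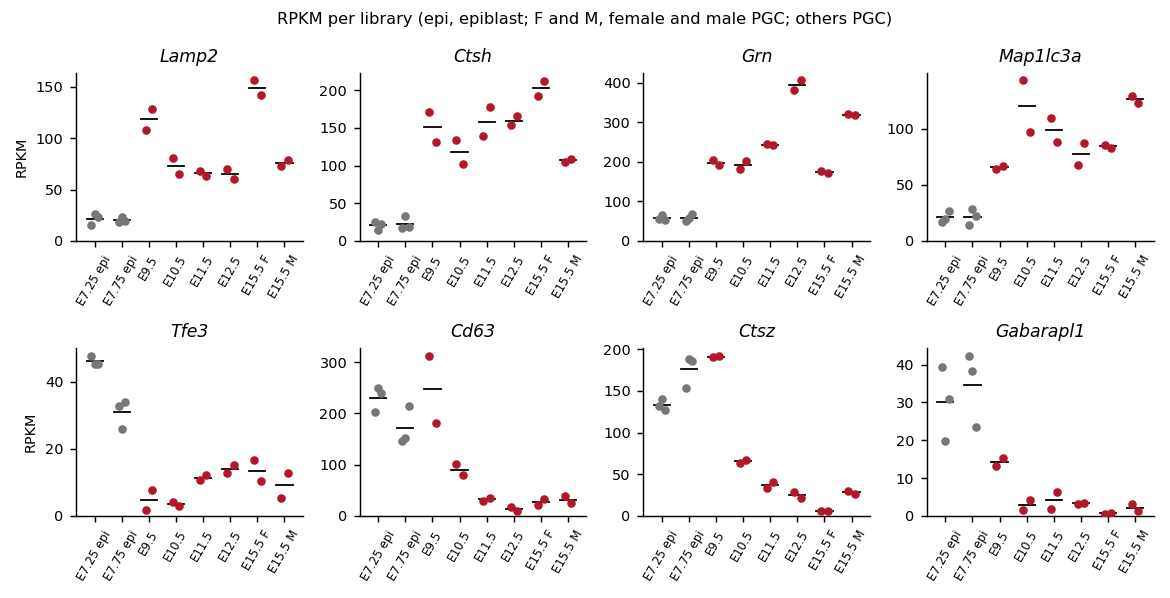
RPKM of 8 genes in each library, with epiblast in grey, PGC in red and a line at the mean of each group. Lamp2, Ctsh, Grn and Map1lc3a are higher in every PGC library than in any epiblast library, Tfe3 and Gabarapl1 lower in every one, and Cd63 and Ctsz are above every epiblast library in at least 1 E9.5 library and below every epiblast library from E10.5 on.

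Several lysosomal genes were lower a day later. In E10.5 PGC against E9.5 PGC, 3 of the 38 genes were higher and 14 lower (background 29.9% in either direction, 11.5% higher and 18.4% lower). Of the 20 lysosomal genes 0 were higher and 10 lower (median log2 fold change -0.68, all tested genes -0.16), and of the 16 autophagy genes 3 were higher and 4 lower (median -0.18). Library scaling mattered here: with libraries shifted to the same median, the median of all tested genes was 0.26, that of the lysosomal genes -0.26, with 1 higher and 4 lower, and that of the autophagy genes 0.24, with 5 higher and 2 lower. Of all 38 genes 6 were higher and 6 lower under that scaling. The E10.5 libraries were also the ones sequenced less deeply, at 20.7% and 22.1% of the E7.75 female library, and the part of depth was not tested. Summed mesenchymal markers were 0 to 1.42 RPKM in E10.5 PGC and 51.3 to 57.9 in E9.5 PGC, and summed endothelial markers 1.19 to 3.54 in E10.5 PGC and 26.5 to 95.4 in E9.5 PGC. Both marker sums were thus lower at E10.5, and the part of such cells in these falls was not tested.

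The firmest falls were those of Ctsz and Ctsa. Ctsz had 64.1 and 66.6 RPKM in E10.5 PGC and 190.4 and 192 in E9.5 PGC (log2 fold change -1.53 ± 0.16 SE, limma adjusted p = 1.87e-05). Ctsa had 52.2 and 49.3 RPKM in E10.5 PGC and 103 and 119 in E9.5 PGC (log2 fold change -1.11 ± 0.17 SE, limma adjusted p = 0.000238). Both E10.5 libraries were below both E9.5 libraries for the 2 genes. Neu1 had 3.35 and 0 RPKM in E10.5 PGC and 21.8 and 15.96 in E9.5 PGC (log2 fold change -3.24 ± 0.54 SE, limma adjusted p = 0.000562). Atg12, the gene of the ubiquitin-like partner of ATG5, had 23.95 and 23.2 RPKM in E10.5 PGC and 73.8 and 43.2 in E9.5 PGC (log2 fold change -1.23 ± 0.25 SE, limma adjusted p = 0.00194). The groups do not overlap for any of the 4, and in all for 23 of the 38 genes, beside 51.9% of tested genes.

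Gabarapl2 and Sqstm1 rose. Gabarapl2 had 37.98 and 30.5 RPKM in E10.5 PGC and 16.3 and 17.01 in E9.5 PGC (log2 fold change 0.99 ± 0.18 SE, limma adjusted p = 0.00109). Sqstm1 had 203 and 193 RPKM in E10.5 PGC and 121 and 126 in E9.5 PGC (log2 fold change 0.68 ± 0.15 SE, limma adjusted p = 0.0034). Both E10.5 libraries lay above both E9.5 libraries for each gene. The other 11 calls, lower for Gabarapl1, Scarb2, Gusb, Optn (listed at 0 in both E10.5 libraries), Cd63, Glb1, Lamp2, Ctsb, Hexa and Becn1 and higher for Map1lc3a, each ended without at least 1 of the 4 libraries compared, with limma adjusted p up to 0.251 (Map1lc3a without E10.5 PGC replicate 1). Of the 38 genes, 11 passed without E10.5 PGC replicate 2, and Ctsz was the 1 that passed when only these 4 libraries were fitted.

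Changes between the later days up to E12.5 were few. In E11.5 PGC against E10.5 PGC, 2 genes were higher and 3 lower (background 7.19% in either direction, 3.59% higher and 3.61% lower). With libraries shifted to the same median 0 were higher and 3 lower. Ctsz had 32.9 and 41.04 RPKM in E11.5 PGC and 64.1 and 66.6 in E10.5 PGC (log2 fold change -0.81 ± 0.16 SE, limma adjusted p = 0.01), a call that ended without E11.5 PGC replicate 1 (0.0872). Cd63 had 29.96 and 35.8 RPKM in E11.5 PGC and 100.4 and 80.4 in E10.5 PGC (log2 fold change -1.43 ± 0.32 SE, limma adjusted p = 0.0185), a call that ended without E10.5 PGC replicate 1 (0.101), E11.5 PGC replicate 1 (0.106) and E11.5 PGC replicate 2 (0.065). The calls of Hexa and Neu1 (higher) and Sqstm1 (lower) had limma adjusted p of 0.049, 0.0453 and 0.047 and ended in 14, 11 and 14 of 18 fits that each left out 1 library. The count of genes passing was 0 to 7 over those fits, with 0 without E11.5 PGC replicate 1 and 1 without E11.5 PGC replicate 2, and it was 0 when only the 4 libraries compared were fitted. The groups were without overlap for 22 of the 38 genes, beside 43.7% of tested genes.

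In E12.5 PGC against E11.5 PGC, Grn was higher and Cd63 lower (background 7.21% in either direction, 4.12% higher and 3.09% lower). Grn had 382 and 406 RPKM in E12.5 PGC and 244 and 243 in E11.5 PGC (log2 fold change 0.69 ± 0.13 SE, limma adjusted p = 0.00791). Cd63 had 17.6 and 9.36 RPKM in E12.5 PGC and 29.96 and 35.8 in E11.5 PGC (log2 fold change -1.28 ± 0.32 SE, limma adjusted p = 0.0282). Neither overlapped, as was the case for 22 of the 38 genes, beside 52.6% of tested genes. The call of Grn ended without E11.5 PGC replicate 1 (0.0569) and E12.5 PGC replicate 2 (0.0812), and that of Cd63 without E11.5 PGC replicate 1 (0.0948), E11.5 PGC replicate 2 (0.146) and E12.5 PGC replicate 2 (0.266), limma adjusted p in parentheses. The call of Grn also ended with libraries shifted to the same median, where 0 were higher and 2 lower, and that of Cd63 when only the 4 libraries compared were fitted.

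Over the whole span from E9.5 to E12.5, both at full depth, 4 genes were higher and 12 lower in E12.5 PGC than in E9.5 PGC (background 23.2% in either direction, 11.3% higher and 11.9% lower). Of the lysosomal genes 2 were higher and 8 lower (median log2 fold change -0.68, all tested genes 0.00), and of the autophagy genes 1 was higher and 4 lower (median 0.01). The fall of Cd63 was the largest, with 17.6 and 9.36 RPKM in E12.5 PGC and 312 and 181 in E9.5 PGC (log2 fold change -4.10 ± 0.32 SE, limma adjusted p = 1.17e-06). Ctsz followed, with 28.8 and 21.6 RPKM in E12.5 PGC and 190.4 and 192 in E9.5 PGC (log2 fold change -2.89 ± 0.16 SE, limma adjusted p = 7.98e-08). Ctsa had 48.3 and 51.1 RPKM in E12.5 PGC and 103 and 119 in E9.5 PGC (log2 fold change -1.14 ± 0.17 SE, limma adjusted p = 0.000211). Both E12.5 libraries lay below both E9.5 libraries for the 3 genes, and an absence of overlap was found for 28 of the 38 genes, beside 56.2% of tested genes. Summed mesenchymal markers were 1.84 to 4.396 RPKM in E12.5 PGC, likewise below those of E9.5 PGC, and summed endothelial markers were 0.241 to 5.51. Their part in these differences was not tested.

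Lamp1 and Grn went the other way. Lamp1 had 272 and 281 RPKM in E12.5 PGC and 152 and 185 in E9.5 PGC (log2 fold change 0.72 ± 0.11 SE, limma adjusted p = 0.000461). Grn had 382 and 406 RPKM in E12.5 PGC and 204 and 192 in E9.5 PGC (log2 fold change 0.99 ± 0.13 SE, limma adjusted p = 0.00012). Both E12.5 libraries were above both E9.5 libraries for each. Gabarapl2 rose by 0.82 ± 0.18 and Becn1 had a log2 fold change of -0.65 ± 0.15 (SE, limma adjusted p = 0.00468 and 0.00669). Tfe3 had 12.9 and 15.2 RPKM in E12.5 PGC and 1.86 and 7.61 in E9.5 PGC (log2 fold change 1.60 ± 0.44 SE, limma adjusted p = 0.0169), a call that ended without E9.5 PGC replicate 1 (0.191), E12.5 PGC replicate 1 (0.058) and E12.5 PGC replicate 2 (0.099). The other 8 calls, all lower, were of Man2b1, Glb1, Neu1, Lamp2, Ctsb, Gabarapl1, Gabarap and Map1lc3b, and each ended without at least 1 of the 4 libraries compared, with limma adjusted p up to 0.318 (Neu1 without E12.5 PGC replicate 2). Of the 38 genes, 7 passed without E12.5 PGC replicate 2 and 6 when only the 4 libraries compared were fitted.

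At E15.5, 3 genes were higher and 6 lower than at E12.5 (background 15.1% in either direction, 6.81% higher and 8.27% lower). With libraries shifted to the same median 4 were higher and 4 lower. Ctsa had 8.59 and 7.72 RPKM in the female and 43.2 and 33.4 in the male E15.5 libraries, against 48.3 and 51.1 in E12.5 PGC (log2 fold change -1.42 ± 0.14 SE, limma adjusted p = 2.3e-05). Hexa had 26.6 and 21.5 RPKM in the female and 60.1 and 55.1 in the male E15.5 libraries, against 85.6 and 98.4 in E12.5 PGC (log2 fold change -1.28 ± 0.13 SE, limma adjusted p = 1.97e-05). Grn had 176 and 172 RPKM in the female and 319.8 and 317 in the male E15.5 libraries, against 382 and 406 in E12.5 PGC (log2 fold change -0.74 ± 0.12 SE, limma adjusted p = 0.000786).

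For these 3 genes all 4 E15.5 libraries were below both E12.5 libraries, and the female libraries were the lowest. The 2 days did not overlap for 12 of the 38 genes, beside 32.3% of tested genes. Ctsz was lower at E15.5 on the mean of both sexes (log2 fold change -0.88 ± 0.14 SE, limma adjusted p = 0.000789), but the male libraries overlapped E12.5. Cd63 had 21.6 and 33.4 RPKM in the female and 38.2 and 25.8 in the male E15.5 libraries, against 17.6 and 9.36 in E12.5 PGC (log2 fold change 1.11 ± 0.28 SE, limma adjusted p = 0.0151), a call that ended without E12.5 PGC replicate 2 (0.269). The call of Cd63 also ended when only the libraries compared were fitted. The other 4 calls, lower for Ctsl and Map1lc3b and higher for Lamp2 and Sqstm1, each ended without at least 1 library compared. Sqstm1 was higher only in male E15.5 libraries (223 and 194 RPKM). The female libraries had 100.7 and 101.4, below the 116.7 and 102.0 of E12.5. Map1lc3b was lower in female libraries (35.2 and 49.4), while the male libraries (85.5 and 75.1) overlapped E12.5 (81.9 and 86.0). Lamp2 had 156 and 142 in female and 72.8 and 79.2 in male libraries, against 70.4 and 59.9 at E12.5. Ctsl was lower in both sexes. Of the 38 genes, 4 passed without E12.5 PGC replicate 2 and 5 without E12.5 PGC replicate 1.

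Female and male germ cells at E15.5 differed in several lysosomal genes. In female against male E15.5 PGC, 2 genes were higher and 7 lower (background 9.68% in either direction, 4.33% higher and 5.35% lower), with 2 higher and 5 lower among the lysosomal genes and 0 higher and 2 lower among the autophagy genes. Ctsz had 5.57 and 5.98 RPKM in female and 30.2 and 26.4 in male PGC (log2 fold change -2.11 ± 0.16 SE, limma adjusted p = 2.95e-06). Ctsa had 8.59 and 7.72 RPKM in female and 43.2 and 33.4 in male PGC (log2 fold change -2.09 ± 0.17 SE, limma adjusted p = 4.04e-06). Hexa had 26.6 and 21.5 RPKM in female and 60.1 and 55.1 in male PGC (log2 fold change -1.23 ± 0.14 SE, limma adjusted p = 0.000132). Both female libraries were below both male libraries for each, and the sexes did not overlap for 23 of the 38 genes, beside 50.3% of tested genes.

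Grn had 176 and 172 RPKM in female and 319.8 and 317 in male PGC (log2 fold change -0.87 ± 0.13 SE, limma adjusted p = 0.00116). Sqstm1 had 101 and 101 RPKM in female and 223 and 194 in male PGC (log2 fold change -1.03 ± 0.15 SE, limma adjusted p = 0.0006). Map1lc3b had 35.2 and 49.4 RPKM in female and 85.5 and 75.1 in male PGC (log2 fold change -0.93 ± 0.14 SE, limma adjusted p = 0.00119). These 3 were likewise lower in both female libraries. Lamp2, in contrast, had 156 and 142 RPKM in female and 72.8 and 79.2 in male PGC (log2 fold change 0.96 ± 0.21 SE, limma adjusted p = 0.0109), a call that ended without E15.5 PGC male replicate 1 (0.0854), E15.5 PGC male replicate 2 (0.0503) and E15.5 PGC female replicate 1 (0.0691).

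Gla had 36.5 and 36.3 RPKM in female and 18.1 and 15.6 in male PGC (log2 fold change 1.07 ± 0.30 SE, limma adjusted p = 0.0385) and Gusb 0.556 and 0.0114 in female and 3.19 and 2.67 in male PGC (log2 fold change -1.64 ± 0.47 SE, limma adjusted p = 0.0416). The call of Gla ended without E15.5 PGC male replicate 1 (0.115), E15.5 PGC male replicate 2 (0.195), E15.5 PGC female replicate 1 (0.127) and E15.5 PGC female replicate 2 (0.145), and without 1 of 14 libraries outside the comparison, and that of Gusb without E15.5 PGC male replicate 1 (0.191), E15.5 PGC male replicate 2 (0.134), E15.5 PGC female replicate 1 (0.0664) and E15.5 PGC female replicate 2 (0.242), and without 5 of 14 libraries outside the comparison. When only the 4 libraries compared were fitted, the calls of Gla, Gusb, Grn and Map1lc3b ended. Summed macrophage markers were 2.09 to 4.402 RPKM in female and 5.99 to 12.9 in male PGC, and summed markers of the gonadal soma 2.601 to 7.18 in female and 12.1 to 15.96 in male PGC, so both were higher in the male libraries. The part of such cells in the sex difference was not tested. Lamp2 and Gla, the genes called higher in female PGC, both lie on chromosome X. Tfe3 also lies there, and its difference between the sexes did not pass. The part of X linkage in these differences was not tested.

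**Figure D5:**
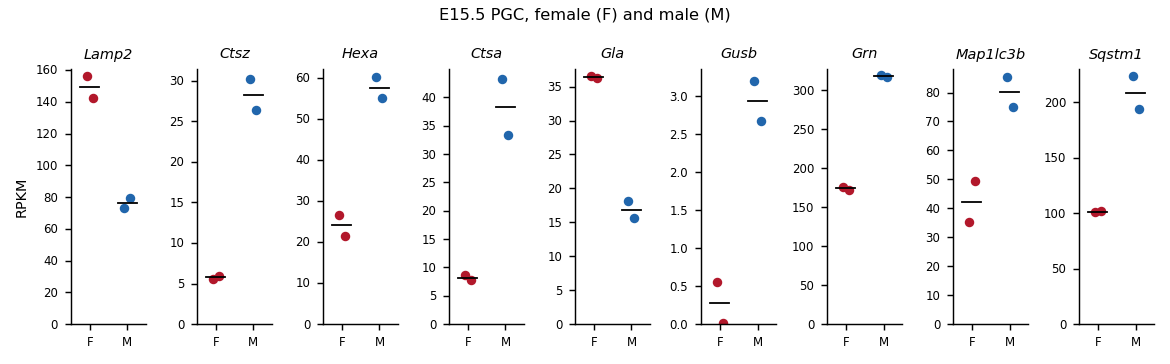
RPKM of the 9 genes that differed between female (F, left, red) and male (M, right, blue) E15.5 PGC, with 1 point for each library and a line at the mean. Lamp2 and Gla are higher in both female libraries, and the other 7 genes are lower in both.

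Within the epiblast the 38 genes gave 1 call. In E7.75 against E7.25 epiblast, 0 genes were higher and 1 was lower (background 0.269% in either direction, 0.101% higher and 0.168% lower), the glycosidase gene Hexa, with 40.8, 45.3 and 47.02 RPKM at E7.75 and 76.2, 64.98 and 68.6 at E7.25 (log2 fold change -0.64 ± 0.12 SE, limma adjusted p = 0.0401). The days were without overlap for it, and in all for 6 of the 38 genes, beside 15.5% of tested genes. The call ended in 14 of 18 fits that each left out 1 library, among them all 6 that left out an epiblast library, with limma adjusted p up to 0.175.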

How the data were processed

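Total RNA was isolated with a PicoPure kit and made into libraries with a SMART-Seq v4 low-input kit, per the labels' protocols. Per the submitters' processing notes, the authors used bcl2fastq 2.18.0.12, cutadapt 1.14, TopHat2 2.1.0 and Cufflinks 2.2.1 with the rat build rn6, and they deposited 1 table of RPKM for 18 libraries, named for each library. For the annotation release, the strand setting and the treatment of multiply mapped reads the entry is: not given in the sources used here. RPKM values are not counts, so no count test was used, and no interval for counting error could be given; relative depth was read from the steps between low RPKM values.

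Values were transformed to log2(RPKM + 1), a scale on which fold changes of weakly expressed genes come out too small. The 14865 genes with at least 1 RPKM in at least 2 libraries were fitted with limma 3.58.1 (R 4.3.3, variance trend) in 8 groups, with epiblast sexes together and E15.5 sexes apart, leaving 10 residual degrees of freedom. P-values were adjusted by Benjamini-Hochberg over all tested genes within each of 9 comparisons, which share libraries, with a threshold of 0.05. In simulated data the model recovered most changes of the larger of the sizes set and a minority of the smaller. The share required to pass was lowered after that outcome was seen, and the model was not changed. Identical values between replicates made up 0% of values above 0. All 38 genes could be named in any comparison. Alternatives were another pseudocount, other filters and scalings, no variance trend, other groupings, a replicate block and leaving out each library. The 38 genes and the lists were chosen with earlier results of these data known. Promoters came from RefSeq (GRCr8), matched by symbol; no coordinates of rn6 were used.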

Additional observations from a re-analysis of the deposited data

Results flagged for a closer look

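Libraries far from the others were looked for in 2 groups, the 6 epiblast and the 4 E15.5 PGC libraries, with days and sexes together. PGC libraries of the other days were not examined. Of 76 pairs of a gene and a group, 1 held such a library: Optn in E7.25 epiblast female replicate 1, at 1.62 RPKM. It was the lowest of the 6 epiblast libraries, whose other values were 2.177 to 2.49 RPKM. Chance gives such a library in about 1 in 20 groups. Its cause was not tested.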

How the results depend on the processing

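Of 100 calls of single genes over the 9 comparisons, 44 held under every alternative and every omitted library, and none changed direction. With libraries shifted to the same median 26 of the 100 ended, with only the libraries compared 43, without the variance trend 13, with quantile normalization 10, without a filter 9 and with a pseudocount of 0.1 4. The count of genes called in E11.5 against E10.5 PGC, 5, became 3 without a filter, with quantile normalization, with libraries shifted to the same median and without the variance trend, and 0 with only the libraries compared. For E12.5 against E11.5 PGC, 2 became 1 without a filter and without the variance trend. For E7.75 against E7.25 epiblast, 1 became 0 with shifted libraries, without the trend and with only the libraries compared. With only the libraries compared, 17 became 1 for E10.5 against E9.5 PGC and 16 became 6 for E12.5 against E9.5 PGC. That fit has fewer libraries to estimate the spread; the cause of the other changes was not tested.

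Leaving out each library gave 25 to 28 genes for PGC against epiblast, 14 to 15 for E9.5 PGC against E7.75 epiblast, 11 to 18 for E10.5 against E9.5, 0 to 7 for E11.5 against E10.5, 0 to 2 for E12.5 against E11.5, 7 to 18 for E12.5 against E9.5, 4 to 10 for E15.5 against E12.5, 6 to 10 for female against male E15.5, and 0 to 1 for E7.75 against E7.25. Where this left 1 library in a group, that library was assumed to vary like the others. The replicate numbers do not pair the libraries: 28 correlations of same-numbered deviations between 8 groups were -0.133 to 0.058. With the replicate block, the counts were 27, 14, 17, 4, 2, 15, 9, 9 and 1 in the same order, and 2 of 100 calls ended, Hexa in E11.5 against E10.5 PGC and Map1lc3b in E12.5 against E9.5 PGC.

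Most groups held 2 libraries, and the depth of E10.5 and E11.5 limits the low genes, among them Optn, Neu1 and Tfeb, listed at 0 in at least 1 library.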
